A study of Homo sapiens with 24 samples.

Results

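Heat shock chaperones were followed across 3 human cancer cell lines in which the ETS factors ERG and ETV1 or the BAF chromatin remodeler had been changed. The set held 10 genes of the 26346 in the deposited tables, taken by symbol: HSPA1A, HSPA1B, HSPA8, DNAJB1, HSPH1, HSP90AA1, HSPB1, CRYAB, HSPD1 and HSPE1. RNA sequencing of polyA RNA gave 24 libraries in 12 groups of 2, and per the labels the duplicates came from separate infections, selections and cultures. The p-values rest on the spread between such duplicates, estimated jointly over all groups of a line and moderated across genes. All cells, controls included, had been exposed to lentivirus for 48 h and then kept under drug selection. VCaP, a prostate cancer line whose ERG is driven by the TMPRSS2 fusion, carried a short hairpin RNA against ARID1A (shARID1A), against ERG (shERG) or a control hairpin (shCt), with 8 days of puromycin. LNCaP, a prostate cancer line, carried ERG, ETV1 or the Empty vector, with 4 days of blasticidin. SW13, an adrenal cortical carcinoma line that makes little BRG1, carried 2 viruses at once and had 2 days of both drugs. The first virus held BRG1 (the ATPase of BAF, encoded by SMARCA4), BRG1-K785R (its ATPase mutant) or GFP, and the second held ERG or nothing (Empty). The titles name this control construct GFP while part of the protocol text names luciferase, and the titles are followed here. Each group is 1 line with pooled, selected cells, and in such bulk RNA fewer cells of a type and less RNA per cell cannot be told apart.

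Heat shock chaperones bind unfolded proteins and help them fold, move or be degraded. HSP70 proteins do so in cycles of ATP use, helped by J-proteins that deliver substrates and by nucleotide exchange factors that reset the cycle, and HSP90 completes the folding of many kinases and steroid receptors, the androgen receptor among them. Small heat shock proteins hold unfolded proteins without ATP, and the HSP60 and HSP10 chaperonin works inside mitochondria. The transcription factor HSF1 raises many of these genes during heat and other proteotoxic stress by binding repeats of the unit NGAAN in alternating orientation.

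The promoters of 4 members are printed here: the HSP70 genes HSPA1A, HSPA1B and HSPA8, which were highest in SW13 cells with BRG1-K785R and Empty, and HSPD1, which was lowest in VCaP cells with the ARID1A hairpin. The RefSeq table of promoters (GRCh38.p14, 250 bases before to 50 after a start, read 5′ to 3′ on the gene's strand) held 13 windows for 9 of the 10 members. The windows shown lie at chr6:31815293-31815592 on the + strand (HSPA1A), chr6:31827488-31827787 on the + strand (HSPA1B), chr11:123062087-123062386 on the - strand (HSPA8) and chr2:197499791-197500090 on the - strand (the second of 2 HSPD1 windows). Capitals mark every match, on either strand, to a pair of facing or opposed units, GAANNTTC or TTCNNGAA.
HSPA1A: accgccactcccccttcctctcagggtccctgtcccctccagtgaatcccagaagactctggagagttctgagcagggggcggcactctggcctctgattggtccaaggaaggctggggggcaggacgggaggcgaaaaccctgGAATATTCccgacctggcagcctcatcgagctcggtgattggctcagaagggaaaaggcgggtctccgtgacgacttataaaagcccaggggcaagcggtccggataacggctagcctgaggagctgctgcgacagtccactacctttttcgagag
HSPA1B: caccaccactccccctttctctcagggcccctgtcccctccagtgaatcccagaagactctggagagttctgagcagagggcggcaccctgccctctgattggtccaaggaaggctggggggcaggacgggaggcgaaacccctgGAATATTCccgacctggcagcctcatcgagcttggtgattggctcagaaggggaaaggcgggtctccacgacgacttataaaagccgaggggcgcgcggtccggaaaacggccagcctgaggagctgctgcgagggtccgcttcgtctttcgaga
HSPA8: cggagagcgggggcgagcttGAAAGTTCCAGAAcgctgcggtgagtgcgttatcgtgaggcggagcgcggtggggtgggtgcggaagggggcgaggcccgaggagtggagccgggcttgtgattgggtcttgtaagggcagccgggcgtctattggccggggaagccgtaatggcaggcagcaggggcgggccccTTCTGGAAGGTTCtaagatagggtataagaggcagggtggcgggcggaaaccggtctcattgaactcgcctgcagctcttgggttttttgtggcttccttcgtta
HSPD1: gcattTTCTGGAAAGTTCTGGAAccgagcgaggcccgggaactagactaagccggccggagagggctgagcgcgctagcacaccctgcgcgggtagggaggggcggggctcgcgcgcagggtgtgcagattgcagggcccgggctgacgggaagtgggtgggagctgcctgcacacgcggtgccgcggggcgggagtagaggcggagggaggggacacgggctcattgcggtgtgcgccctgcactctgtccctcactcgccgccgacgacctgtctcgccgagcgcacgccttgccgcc

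The HSPA1A and HSPA1B windows were nearly the same, with 277 of 299 aligned bases equal (92.6%), and each held the pair GAATATTC once. HSPA8 and HSPD1 held longer runs that matched 3 units in a row, GAANNTTC extended by NNGAA on either strand, a motif that contains both pairs. A match to 3 units stood in the windows of 3 members (HSPA8, HSP90AA1 and HSPD1), against 0.49% of 35116 promoters of the same length. A match to a pair stood in the windows of 7 members (the same 3 with HSPA1A, HSPA1B, DNAJB1 and HSPB1), against 13.5% of those promoters. A member counts here if any of its windows matched, whereas the 35116 promoters were counted singly, so the shares are not strictly alike. HSPH1 and HSPE1 had a single window without either match, and the first windows of DNAJB1, HSP90AA1 and HSPD1 had no match either. The HSPE1 window overlapped the first HSPD1 window by 204 bases, since both genes start back to back. These are matches of letters, and binding was not measured.

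The libraries held 19754265 to 41996681 counted reads. The targeted genes followed the labels: ERG was at 81 to 87.9 CPM (counts scaled to the library total) with shERG against 330 to 354 CPM with shCt. ARID1A was at 71.9 to 75.3 CPM with shARID1A against 250 to 251 CPM with shCt. ERG was also lower with shARID1A than with shCt, at 238 to 242 CPM (log2 change -0.58). Against shCt, SMARCA4 changed by 0.49 with shERG and by -0.38 with shARID1A on the log2 scale. The part of these differences in the chaperone values of VCaP was not tested. LNCaP cells had 958 to 996 CPM of ERG with ERG against 0.277 to 0.619 CPM with Empty, and 3626 to 3749 CPM of ETV1 with ETV1 against 568 to 590 CPM with Empty. SW13 libraries had 1417 to 2264 CPM of SMARCA4 with either BRG1 construct against 25.5 to 35.4 CPM with GFP, and those reads may come from the construct or the chromosome. The 10 prostate luminal markers summed to 6755 to 15597 CPM in VCaP and LNCaP and to 33.2 to 216 CPM in SW13. Of 8 adrenal cortex markers, CYP11B1, HSD3B2 and MC2R had 0 reads in all SW13 libraries, and CYP21A2, which has a near-identical pseudogene, gave most of the summed 11.7 to 22.9 CPM. SW13 is thus named here by its label and not by those markers.

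HSPA1A and HSPA1B encode almost the same stress-inducible HSP70, and 71.2% of the 75-base stretches of the HSPA1A transcript also occur in HSPA1B. Their reads can be split between the rows by the authors' counting, and the ratio of HSPA1A to HSPA1B reads was 0.739 to 0.858 in VCaP, 0.759 to 0.769 in LNCaP and 1.03 to 1.09 in SW13. Values of both rows are given, and their sum where a level is compared. Both rows enter the counts of chaperones called, although shared reads make them not independent. The deposited lengths of HSPA1A (12145 bases) and HSPA1B (12601 bases) are 4.89 and 5 times those of their longest GENCODE coding transcripts, so their deposited RPKM values were not used. HSPE1 shares 13.6% of its stretches with the read-through gene HSPE1-MOB4, which had 1690 to 7145 reads per library.

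Expressed as RPKM, which divides reads by gene length and library total, HSPA8, the constitutive HSP70, was the most abundant of the chaperones in VCaP and LNCaP. It averaged 935 ± 21.9 RPKM in VCaP shCt (SD, n = 2), followed by HSP90AA1 at 358 ± 8.44 and HSPD1 at 268 ± 1.74 RPKM. In LNCaP Empty HSPA8 averaged 1619 ± 66.9 RPKM and HSPD1, at 669 ± 2.52, stood above HSP90AA1 at 439 ± 8.68 RPKM. Next in LNCaP Empty came HSPB1 (249 ± 7.5 RPKM) and HSPA1A with HSPA1B (248 ± 2 RPKM), which differed by less than the spread, and then HSPE1 (238 ± 3.91 RPKM). In SW13 GFP Empty HSP90AA1 came first at 1147 ± 55.2 RPKM, with HSPA8 next at 1075 ± 60.7 RPKM, and the ranges of mean and SD of the pair overlapped. DNAJB1 and HSPH1 were far lower, at 44.1 ± 2.58 and 43.5 ± 2.02 RPKM there. Together the 10 genes took the smallest share of counted reads in VCaP shARID1A (0.356%) and the largest in SW13 BRG1-K785R Empty (1.56%), against 0.51% in VCaP shCt and 0.995% in SW13 GFP Empty.

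**Figure D1:**
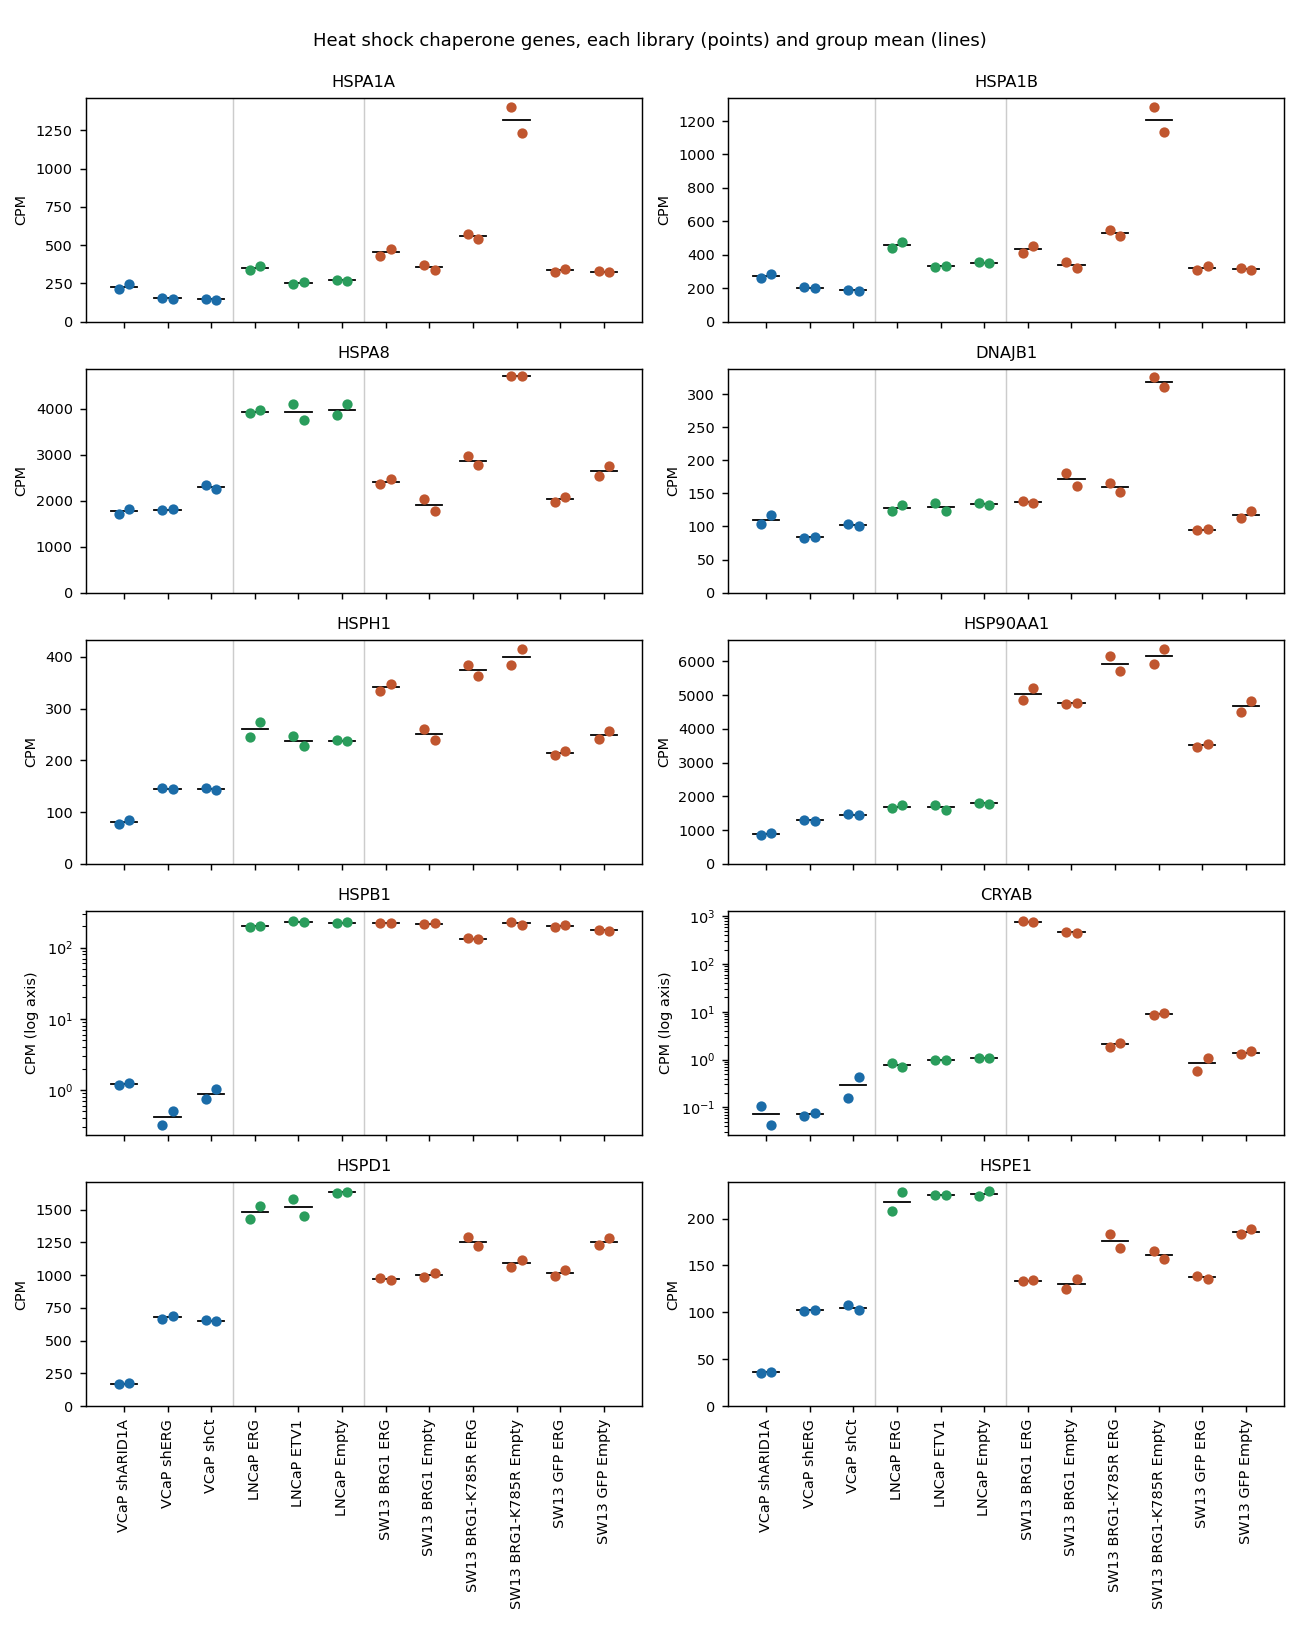
Level of each chaperone gene (CPM on library totals, vertical axes, logarithmic for HSPB1 and CRYAB) in the 12 groups (horizontal axes), with 1 point per library and a line at the group mean. HSPA1A, HSPA1B, HSPA8 and DNAJB1 peak in SW13 BRG1-K785R Empty, HSPD1 and HSPE1 are lowest in VCaP shARID1A, and CRYAB is above 400 CPM only in the 4 SW13 libraries given wild-type BRG1.

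Of the small heat shock proteins, HSPB1 set VCaP apart from the other lines. HSPB1, which binds unfolded proteins and actin, had 10 to 34 reads per library in VCaP, or 0.324 to 1.25 CPM, while it had 194 to 234 CPM in LNCaP and 130 to 232 CPM in SW13. No VCaP library came near the others. CRYAB, the lens and muscle small heat shock protein, had 1 to 11 reads per library in VCaP and 20 to 46 in LNCaP. It was too low in VCaP to be tested. CRYAB was low in the control groups of all lines, at a mean of 0.289 CPM in VCaP shCt, 1.09 CPM in LNCaP Empty and 1.39 CPM in SW13 GFP Empty. Lines differ in origin, vector and selection time together, and the difference between lines was not tested.

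The inducible chaperones were higher in SW13 cells with the BRG1 mutant. With BRG1-K785R and Empty, 8 of 10 chaperones rose against GFP and Empty, where 58.7% of all genes were called and 32.3% were higher (edgeR's quasi-likelihood test, Benjamini-Hochberg adjusted p under 0.05). Of the 10, 4 rose at least 2-fold, where 6.28% of all genes did so. The median log2 change was 0.83 over the chaperones and 0.05 over all genes tested. HSPD1 and HSPE1 were not called, with log2 changes of -0.13 each, but with library totals as the scale both were lower (-0.20, adjusted p = 0.00331, and -0.21, adjusted p = 0.00973), which makes the split 8 higher and 2 lower.

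HSPA1A stood at 1401 and 1233 CPM in the BRG1-K785R Empty libraries and at 331 and 323 CPM in the GFP Empty libraries. HSPA1B stood at 1285 and 1132 CPM in BRG1-K785R Empty and at 321 and 311 CPM in GFP Empty. The groups were far apart for both genes, and no other library of the study exceeded 600 CPM of either. Their summed reads rose 4.16-fold (log2 change 2.06 ± 0.08 SE, adjusted p = 1.6e-19). HSPA8, whose protein folds new chains in unstressed cells, had 4716 and 4723 CPM in BRG1-K785R Empty against 2540 and 2751 CPM in GFP Empty, and rose 1.88-fold (0.91 ± 0.08, adjusted p = 9.97e-12).

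The partners of HSP70 moved the same way. DNAJB1, the J-protein that hands substrates to HSP70, had 326 and 310 CPM in BRG1-K785R Empty against 113 and 123 CPM in GFP Empty, without overlap (1.51 ± 0.08, adjusted p = 1.7e-16). HSPH1, a nucleotide exchange factor for HSP70, had 384 and 416 CPM in BRG1-K785R Empty against 241 and 257 CPM in GFP Empty (0.76 ± 0.07, adjusted p = 2.24e-10). HSP90AA1, the inducible HSP90, had 5934 and 6361 CPM in BRG1-K785R Empty against 4514 and 4832 CPM in GFP Empty (0.47 ± 0.07, adjusted p = 1.35e-06). Among the HSP70 genes and these partners the increase was thus graded, steepest for HSPA1A and HSPA1B and shallowest for HSP90AA1.

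Among the small heat shock proteins, HSPB1 had 232 and 206 CPM in BRG1-K785R Empty against 179 and 171 CPM in GFP Empty (0.40 ± 0.07, adjusted p = 1.74e-05). CRYAB had 8.69 and 9.46 CPM in BRG1-K785R Empty against 1.29 and 1.49 CPM in GFP Empty, a 6.83-fold rise at a low level (2.77 ± 0.17, adjusted p = 3.75e-15). In the mitochondrial pair, HSPD1 had 1062 and 1116 CPM in BRG1-K785R Empty and 1230 and 1280 CPM in GFP Empty, and HSPE1 had 165 and 157 CPM in BRG1-K785R Empty and 183 and 189 CPM in GFP Empty.

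Of 31 other genes of the HSF1 pathway and cytosolic co-chaperones, 30 were tested, and 13 were higher and 10 lower in BRG1-K785R Empty than in GFP Empty, with a median log2 change of 0.19. BAG3, a co-chaperone of HSP70 in selective autophagy, rose to a mean of 178 CPM in BRG1-K785R Empty against 60.2 CPM in GFP Empty (1.64 ± 0.07, adjusted p = 2.88e-18). AHSA1, which activates the HSP90 ATPase, rose by 0.61 on the log2 scale, and SERPINH1, the collagen chaperone, fell by 0.56. The TRiC/CCT chaperonin, which folds actin and tubulin, had 2 subunits higher and 1 lower of 8, and 11 mitochondrial chaperones and proteases had 3 higher and 1 lower. Of 15 endoplasmic reticulum chaperones 7 were higher and 4 lower, with HERPUD1, a part of the degradation machinery of that compartment, at 53.6 CPM in BRG1-K785R Empty and 18 CPM in GFP Empty (1.66 ± 0.09, adjusted p = 2.68e-16). Of 14 immediate early genes 6 were higher and 5 lower, and the mesenchymal list summed to 1180 to 1238 CPM in BRG1-K785R Empty and 1073 to 1093 CPM in GFP Empty. The part of these genes in the chaperone result was not tested.

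**Figure D2:**
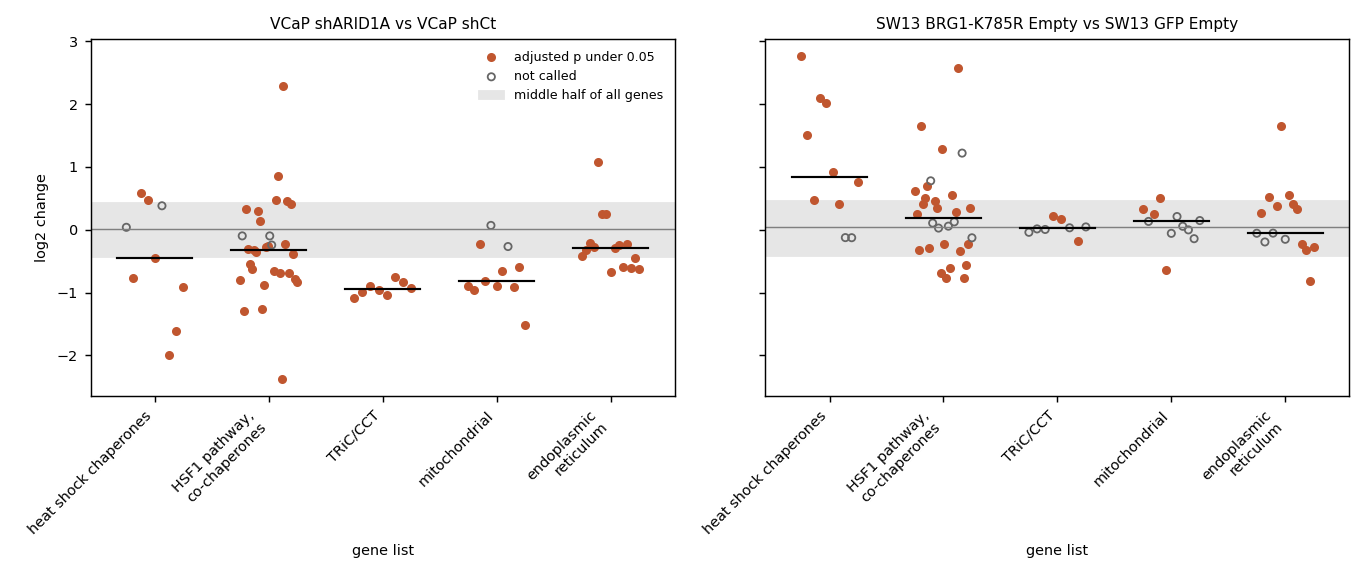
Log2 change (vertical axes) of each tested gene of 5 chaperone lists (horizontal axes) for VCaP shARID1A against VCaP shCt and for SW13 BRG1-K785R Empty against SW13 GFP Empty, with filled points called, open points not called, a line at each list's median and a grey band over the central 50% of all genes. The heat shock chaperones have a median of -0.45 in the VCaP panel and 0.83 in the SW13 panel.

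With ERG beside BRG1-K785R these chaperones were lower again. The BRG1-K785R Empty libraries are the same 2 that gave the rise against GFP Empty, so the rise and the fall are not independent. Of the 10, 8 fell in BRG1-K785R ERG against BRG1-K785R Empty, where 56.2% of all genes were called and 30.9% were lower, and 4 fell at least 2-fold, where 3.61% of all genes did. HSPA1A fell to 575 and 541 CPM in BRG1-K785R ERG, against 1401 and 1233 CPM in BRG1-K785R Empty, without overlap (-1.43 ± 0.08, adjusted p = 9.8e-16). DNAJB1 fell to 166 and 152 CPM in BRG1-K785R ERG, against 326 and 310 CPM in BRG1-K785R Empty (-1.19 ± 0.08, adjusted p = 6.21e-14). HSPA8 fell to 2982 and 2769 CPM in BRG1-K785R ERG, against 4716 and 4723 CPM in BRG1-K785R Empty (-0.90 ± 0.08, adjusted p = 2.04e-11).

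HSPA1B fell by 1.37 on the log2 scale and CRYAB by 2.31, to 1.87 and 2.27 CPM in BRG1-K785R ERG. HSPB1 fell to 135 and 130 CPM in BRG1-K785R ERG, against 232 and 206 CPM in BRG1-K785R Empty, and these are its lowest values in SW13 (-0.91 ± 0.07, adjusted p = 5.38e-12). The CPM of HSPH1 and HSP90AA1 overlapped between the groups, and their log2 changes of -0.28 and -0.24 were called on the TMM scale but not with library totals as the scale (-0.09 and -0.05), which shifted the median of all genes to 0.17 and makes the split 1 higher (HSPD1) and 6 lower. HSP90AA1 was also not called without BRG1-K785R Empty 2 (-0.20, adjusted p = 0.0675) or BRG1-K785R ERG 2 (-0.17, adjusted p = 0.0531). On the TMM scale HSPD1 (log2 change 0.02) and HSPE1 (-0.06) were not called. BAG3 fell with the chaperones, to a mean of 77.7 CPM in BRG1-K785R ERG against 178 CPM in BRG1-K785R Empty (-1.39 ± 0.07, adjusted p = 2.29e-16). Of 14 immediate early genes 1 was higher and 9 were lower in the same comparison. SMARCA4 reads, those of the construct included, were also lower, at 1417 to 1430 CPM in BRG1-K785R ERG against 2039 to 2180 CPM in BRG1-K785R Empty, and the part of these differences in the chaperone values was not tested.

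With ERG on both sides, the mutant still had more of the chaperones than GFP. In BRG1-K785R ERG 9 chaperones were higher and HSPB1 was lower than in GFP ERG, where 40.5% of all genes were called. HSPA1A had 575 and 541 CPM in BRG1-K785R ERG against 326 and 343 CPM in GFP ERG (0.68 ± 0.08, adjusted p = 2.41e-08). HSP90AA1 had 6147 and 5703 CPM in BRG1-K785R ERG against 3469 and 3556 CPM in GFP ERG (0.70 ± 0.07, adjusted p = 3.86e-09). Neither pair of groups overlapped.

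Beside GFP the decreases with ERG were small and the inducible HSP70 was not among them. In GFP ERG 7 chaperones fell against GFP Empty, where 26% of all genes were called and 13.5% were lower, and the 7 log2 changes ran from -0.81 to -0.27. HSP90AA1 fell to 3469 and 3556 CPM in GFP ERG, against 4514 and 4832 CPM in GFP Empty (-0.47 ± 0.07, adjusted p = 2.25e-05). HSPE1 fell to 139 and 136 CPM in GFP ERG, against 183 and 189 CPM in GFP Empty (-0.49 ± 0.07, adjusted p = 1.39e-05). HSPA8 had 1980 and 2089 CPM in GFP ERG against 2540 and 2751 CPM in GFP Empty, again without overlap (-0.43 ± 0.08, adjusted p = 0.000124).

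HSPA1A had 326 and 343 CPM in GFP ERG and 331 and 323 CPM in GFP Empty, overlapping groups with a log2 change of -0.02 (95% interval -0.17 to 0.13). CRYAB had 14 to 26 reads in GFP ERG and 29 to 38 in GFP Empty, and its call (-0.81) was lost without GFP ERG 1 or GFP Empty 2. Without GFP Empty 2 the number of chaperones called was 4 in place of 7, with DNAJB1 and HSPH1 also lost, and HSPH1 was lost without GFP ERG 1 too. HSPB1, not called on the TMM scale at 0.14, was higher with library totals (0.19, adjusted p = 0.036), which makes the split 1 higher and 7 lower.

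Beside BRG1 the changes with ERG were mostly increases. In BRG1 ERG 5 chaperones rose and DNAJB1 fell against BRG1 Empty, where 45.4% of all genes were called. HSPA1A had 427 and 477 CPM in BRG1 ERG against 372 and 335 CPM in BRG1 Empty (0.40 ± 0.08, adjusted p = 9.55e-05), and HSPA1B rose by the same log2 change. HSPH1 had 335 and 348 CPM in BRG1 ERG against 261 and 240 CPM in BRG1 Empty (0.49 ± 0.07, adjusted p = 2.35e-06). HSPA8 had 2360 and 2470 CPM in BRG1 ERG against 2045 and 1786 CPM in BRG1 Empty (0.38 ± 0.08, adjusted p = 0.000154).

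DNAJB1 had 138 and 136 CPM in BRG1 ERG against 181 and 161 CPM in BRG1 Empty, so the J-protein fell (-0.27 ± 0.08, adjusted p = 0.00465) while its partner HSP70s rose, a call that was lost without BRG1 Empty 1 (-0.18, adjusted p = 0.143). CRYAB rose to 787 and 754 CPM in BRG1 ERG, against 479 and 448 CPM in BRG1 Empty (0.78 ± 0.07, adjusted p = 3.69e-10). The chaperones of the endoplasmic reticulum had 11 of 15 members higher and none lower in the same comparison, with a median log2 change of 0.25.

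The differences between these ERG effects were tested in the same fit. ERG itself was unequal, at a mean of 2003 CPM in BRG1 ERG, 1597 CPM in BRG1-K785R ERG and 1530 CPM in GFP ERG. It was called higher in BRG1 ERG than in BRG1-K785R ERG or GFP ERG, by 0.35 on the log2 scale each. The part of ERG level in the chaperone values was not tested. Beside BRG1 the effect of ERG was higher than beside BRG1-K785R for 8 chaperones, where 46.2% of all genes were called and 25.8% were higher, and by 1.83 ± 0.11 (SE) on the log2 scale for HSPA1A (adjusted p = 4.92e-14). It was higher than beside GFP for 8 chaperones, where 37.8% of all genes were called and 19.1% were higher, and by 0.81 ± 0.11 for HSPA8 (adjusted p = 8.23e-07). Beside BRG1-K785R it was lower than beside GFP for 6 chaperones and higher for HSPD1 and HSPE1, where 39.8% of all genes were called, and with library totals the split was 3 higher and 6 lower. HSPA1A differed there by -1.41 ± 0.11 (adjusted p = 1.7e-11) and HSPD1 by 0.37 ± 0.10 (adjusted p = 0.00255). All differences that involve BRG1-K785R use the same BRG1-K785R Empty libraries, which had the highest HSPA1A of the study. With ERG, HSPA1A had 427 and 477 CPM in BRG1 ERG and 575 and 541 CPM in BRG1-K785R ERG.

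**Figure D3:**
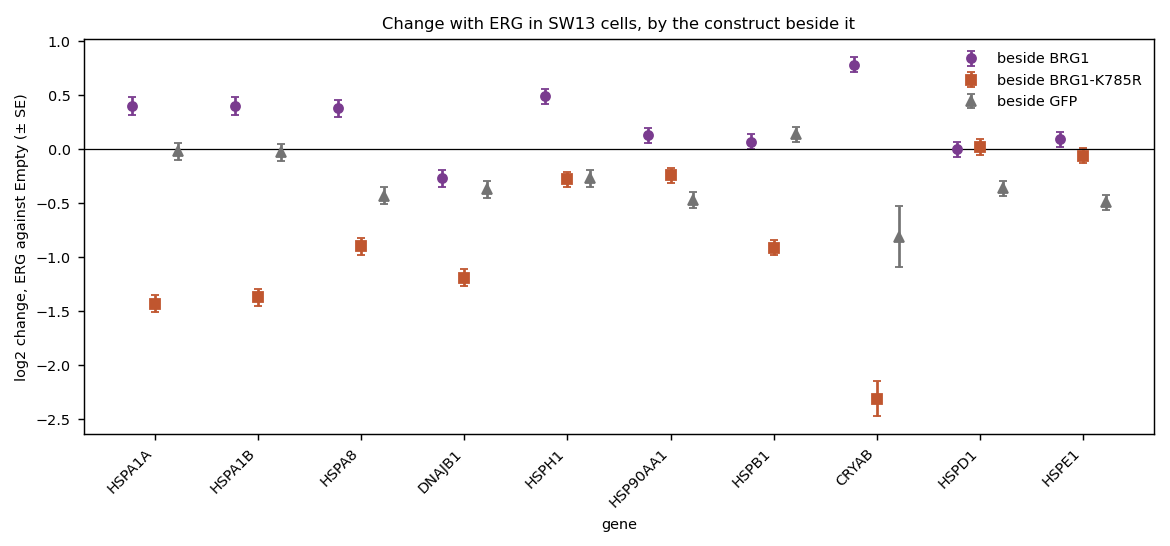
Log2 change with ERG against Empty in SW13 cells (vertical axis, ± SE of the fit) for each chaperone gene (horizontal axis), beside BRG1 (circles), BRG1-K785R (squares) or GFP (triangles). HSPA1A changes by 0.40, -1.43 and -0.02 in that order, and CRYAB by 0.78, -2.31 and -0.81.

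With wild-type BRG1 the small heat shock gene CRYAB was far higher in SW13, while the inducible HSP70 was not called. In BRG1 Empty against GFP Empty 3 chaperones rose and 3 fell, where 62.4% of all genes were called, a share near that of the chaperones. CRYAB had 479 and 448 CPM in BRG1 Empty against 1.29 and 1.49 CPM in GFP Empty, a 301-fold difference (8.24 ± 0.13, adjusted p = 2.3e-31). With ERG it had 787 and 754 CPM in BRG1 ERG against 0.569 and 1.09 CPM in GFP ERG (9.83 ± 0.14, adjusted p = 9.28e-33). Per length, CRYAB was thereby the third most abundant of the chaperones in BRG1 ERG at 712 ± 21.1 RPKM, against the last place at 0.764 ± 0.337 RPKM in GFP ERG.

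The 4 SW13 libraries given the wild-type BRG1 construct stood above 440 CPM of CRYAB and the other 20 libraries of the study below 10 CPM. In BRG1 Empty it was 44.2-fold above BRG1-K785R Empty, which shares the construct but for the ATPase mutation (5.46 ± 0.10, adjusted p = 7.69e-29). HSPB2, the small heat shock gene that lies head to head with CRYAB, had 42 to 97 reads per library with that construct and 0 to 3 reads in all other SW13 libraries. Of all genes tested, 12.7% rose at least 2-fold in BRG1 Empty against GFP Empty. The 12 mesenchymal markers, a lineage in which CRYAB can also be made, summed to 1898 to 1909 CPM in BRG1 Empty and 1073 to 1093 CPM in GFP Empty. None of them was at 0 reads in BRG1 Empty. Of these sums ANXA2 gave 1137 to 1161 CPM in BRG1 Empty and 683 to 701 CPM in GFP Empty. Of 11 markers tested, 7 were higher and 0 lower in BRG1 Empty against GFP Empty. In BRG1 ERG against BRG1 Empty, where CRYAB also rose, 2 were higher and 6 lower. The part of these markers in the CRYAB result was not tested.

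For the inducible HSP70 the difference with the wild-type enzyme was small. HSPA1A had 372 and 335 CPM in BRG1 Empty and 331 and 323 CPM in GFP Empty, which did not overlap in CPM, with a log2 change of -0.02 (95% interval -0.17 to 0.13) on the TMM scale and 0.11 (adjusted p = 0.178) with library totals. In BRG1 Empty against BRG1-K785R Empty, 9 chaperones were lower and only CRYAB was higher, where 66.7% of all genes were called. HSPA1A differed by -2.11 ± 0.08 (adjusted p = 1.41e-20) and HSPA8 by -1.51 ± 0.08 (adjusted p = 4.6e-17), with no overlap. Under library totals, which shifted the median of all genes to 0.22, HSPB1 (-0.01) and HSPD1 (-0.12) were no longer called in that comparison, and HSPB1 was also lost without BRG1 Empty 1 or BRG1-K785R Empty 1.

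HSPA8 fell to 2045 and 1786 CPM in BRG1 Empty, against 2540 and 2751 CPM in GFP Empty (-0.60 ± 0.08, adjusted p = 6e-08). The mitochondrial pair also fell, HSPE1 to 125 and 135 CPM in BRG1 Empty against 183 and 189 CPM in GFP Empty (-0.65 ± 0.07, adjusted p = 4.88e-09) and HSPD1 by 0.46 on the log2 scale. DNAJB1 had 181 and 161 CPM in BRG1 Empty against 113 and 123 CPM in GFP Empty (0.40 ± 0.08, adjusted p = 5.47e-05). HSPB1 differed by 0.18, a call that was lost without any of 4 libraries (BRG1 Empty 1 or 2, GFP Empty 1 or 2) and with no filter on low counts. All 8 TRiC/CCT subunits were lower in BRG1 Empty than in GFP Empty, with a median log2 change of -0.72, and 9 of 11 mitochondrial chaperones and proteases were lower, GRPEL1 (a nucleotide exchange factor of mitochondrial HSP70) by -0.97.

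With ERG present, 7 chaperones were higher with BRG1 than with GFP, where 58.9% of all genes were called and 30.4% were higher. HSPH1 had 335 and 348 CPM in BRG1 ERG against 210 and 219 CPM in GFP ERG (0.64 ± 0.08, adjusted p = 9.89e-09). BRG1 ERG against BRG1-K785R ERG gave 2 higher (CRYAB and HSPB1) and 7 lower chaperones, where 47% of all genes were called, and the 7 log2 changes ran only from -0.38 to -0.19. The count called was 5 without BRG1-K785R ERG 1 and 4 without BRG1 ERG 1. HSPB1 had 221 and 221 CPM in BRG1 ERG against 135 and 130 CPM in BRG1-K785R ERG (0.76 ± 0.07, adjusted p = 3.12e-10).

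In VCaP cells with the ARID1A hairpin the mitochondrial chaperonin fell most. Of 9 chaperones tested in shARID1A against shCt, 5 fell and 2 rose, where 66.1% of all genes were called, a share near that of the chaperones. HSPD1, the HSP60 of the mitochondrial matrix, fell to 170 and 174 CPM in shARID1A, against 656 and 650 CPM in shCt, a 3.99-fold decrease (-2.00 ± 0.05, adjusted p = 3.05e-19). Its lid HSPE1 fell to 35.5 and 36.6 CPM in shARID1A, against 108 and 102 CPM in shCt (-1.61 ± 0.06, adjusted p = 2.45e-16). Both genes were far below all other libraries of the study, and at least 2-fold decreases were called for 9.7% of all genes. HSPE1-MOB4 had 72.6 to 73.3 CPM in shARID1A and 114 to 117 CPM in shCt.

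HSPH1 fell to 77.5 and 83.9 CPM in shARID1A, against 147 and 143 CPM in shCt (-0.91 ± 0.05, adjusted p = 4.76e-13). HSP90AA1 fell to 863 and 925 CPM in shARID1A, against 1482 and 1433 CPM in shCt (-0.77 ± 0.05, adjusted p = 4.47e-12). HSPA8 had 1714 and 1822 CPM in shARID1A against 2338 and 2261 CPM in shCt (-0.45 ± 0.05, adjusted p = 5.65e-08). All 3 pairs of groups stood apart.

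The inducible HSP70 went the other way in the same cells. HSPA1A had 215 and 243 CPM in shARID1A against 147 and 143 CPM in shCt (0.59 ± 0.05, adjusted p = 2e-09), and HSPA1B had 259 and 284 CPM in shARID1A against 191 and 181 CPM in shCt (0.48 ± 0.05, adjusted p = 1.96e-08). DNAJB1 had 103 and 117 CPM in shARID1A and 104 and 100 CPM in shCt, overlapping and not called (0.04, 95% interval -0.07 to 0.15). HSPB1 had 34 and 29 reads in shARID1A and 19 and 27 reads in shCt and was not called.

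Other chaperonins and mitochondrial chaperones fell with HSPD1 and HSPE1. All 8 TRiC/CCT subunits were lower in shARID1A than in shCt, with a median log2 change of -0.95, and CCT2 fell to a mean of 77.9 CPM in shARID1A against 158 CPM in shCt. Of 11 mitochondrial chaperones and proteases 9 were lower, among them TRAP1, the mitochondrial HSP90 (-1.52 ± 0.05, adjusted p = 2.02e-16), and HSPA9, the mitochondrial HSP70 (-0.92 ± 0.05, adjusted p = 1.29e-13). The HSF1 and co-chaperone list had 8 higher and 19 lower of 30, with FKBP4, an HSP90 co-chaperone of steroid receptors, at 171 CPM in shARID1A and 391 CPM in shCt. Of 15 endoplasmic reticulum chaperones 3 were higher and 12 lower, with a median log2 change of -0.29. Of 15 immediate early genes 12 were higher and 2 lower, with FOS at 126 CPM in shARID1A and 8.38 CPM in shCt, and their part in the chaperone values was not tested.

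In VCaP cells with the ERG hairpin the decreases were small. In shERG against shCt 7 of 9 chaperones were lower, where 66.7% of all genes were called and 37.4% were lower. HSPA8 fell to 1807 and 1813 CPM in shERG, against 2338 and 2261 CPM in shCt (-0.53 ± 0.05, adjusted p = 4.32e-09). DNAJB1 fell to 82.8 and 84 CPM in shERG, against 104 and 100 CPM in shCt (-0.47 ± 0.06, adjusted p = 1.76e-07). HSP90AA1 fell to 1302 and 1270 CPM in shERG, against 1482 and 1433 CPM in shCt (-0.36 ± 0.05, adjusted p = 8.64e-07).

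The other calls were thin. HSPB1 had 10 and 13 reads in shERG against 19 and 27 in shCt (-1.30 ± 0.41, adjusted p = 0.00877), and HSPH1, HSPE1 and HSPD1 changed by -0.19, -0.22 and -0.13. These 4 were lost without shERG 1, which left 3 chaperones called, HSPB1 was lost without shCt 2 as well, and HSPD1 was lost with RLE scaling, with no filter and with DESeq2. HSPA1A had 156 and 149 CPM in shERG and 147 and 143 CPM in shCt, and was not called on the TMM scale (-0.11) or with library totals (0.07). Library totals as the scale moved the median of all genes to 0.13, left HSPH1 and HSPE1 uncalled and turned HSPD1 to 0.05 (adjusted p = 0.267). They turned HSPA1B, uncalled at -0.05 on the TMM scale, to 0.13 (adjusted p = 0.0234), for a split of 1 higher and 4 lower. On that scale 6997 of 16791 genes were called higher and 4567 lower, against 4923 higher and 6280 lower on the TMM scale. Mitochondrial chaperones and proteases had 7 of 11 members higher in shERG, LONP1 (a matrix protease) at 207 CPM in shERG against 98.3 CPM in shCt, and 14 of 15 endoplasmic reticulum chaperones were lower, with a median log2 change of -0.72. Of the TRiC/CCT subunits 1 was higher and 3 lower.

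Set directly against each other, shARID1A had 4 chaperones higher and 4 lower than shERG, where 73% of all genes were called. HSPD1 had 170 and 174 CPM in shARID1A against 667 and 689 CPM in shERG (-1.86 ± 0.05, adjusted p = 2.03e-19). HSPA1A had 215 and 243 CPM in shARID1A against 156 and 149 CPM in shERG (0.70 ± 0.05, adjusted p = 6.46e-11). HSPA8 had 1714 and 1822 CPM in shARID1A and 1807 and 1813 CPM in shERG, overlapping and not called (0.08, 95% interval -0.02 to 0.18).

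In LNCaP cells the inducible HSP70 was higher with ERG, and no chaperone passed the threshold with ETV1. In LNCaP ERG against Empty 2 chaperones rose and 1 fell, where 29.7% of all genes were called. The 2 that rose were HSPA1A and HSPA1B, which share reads. HSPA1A had 337 and 364 CPM in LNCaP ERG against 269 and 268 CPM in LNCaP Empty (0.39 ± 0.05, adjusted p = 0.000499). HSPA1B had 440 and 478 CPM in LNCaP ERG against 355 and 349 CPM in LNCaP Empty, with the same log2 change. HSPB1 had 194 and 202 CPM in LNCaP ERG against 218 and 228 CPM in LNCaP Empty (-0.16 ± 0.05, adjusted p = 0.0297), and its adjusted p was 0.0539 with the replicate number as a block, 0.128 without ERG 1, 0.0705 without Empty 1 and 0.178 without Empty 2. HSPH1, not called at full size, was called without ERG 1 (0.21, adjusted p = 0.0474).

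DNAJB1 and the constitutive HSPA8 were not called in LNCaP ERG against Empty, with DNAJB1 at 123 and 132 CPM in LNCaP ERG and 136 and 132 CPM in LNCaP Empty, and HSPA8 at 3902 and 3975 CPM in LNCaP ERG and 3866 and 4098 CPM in LNCaP Empty. In LNCaP ETV1 against Empty 0 of 10 chaperones were called by edgeR's quasi-likelihood test, 0 had an unadjusted p under 0.05 and 0 were called by DESeq2, where 26.1% of all genes were called. HSPA1A had 247 and 258 CPM in LNCaP ETV1 and 269 and 268 CPM in LNCaP Empty (-0.05, 95% interval -0.15 to 0.04). Tested directly, HSPA1A was higher in LNCaP ERG than in LNCaP ETV1 (0.44 ± 0.05, adjusted p = 0.000591), HSPA1B was higher by 0.45 and HSPB1 was lower (-0.25 ± 0.05, adjusted p = 0.00888), where 14.4% of all genes were called. In the co-chaperone list 9 of 31 genes were higher and 5 lower with ERG than with Empty, with HSPA4, an exchange factor like HSPH1, at 307 CPM in LNCaP ERG and 234 CPM in LNCaP Empty.

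**Figure D4:**
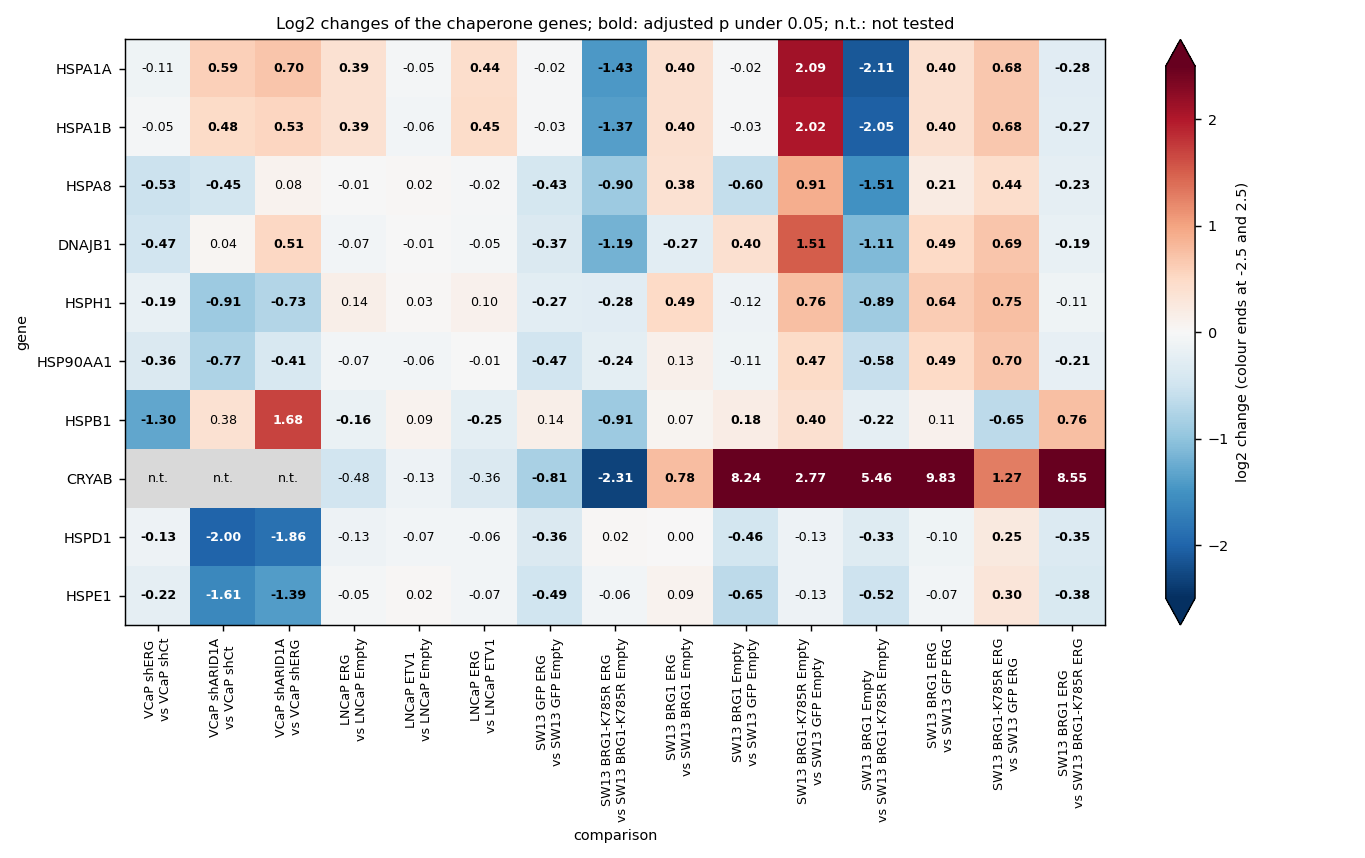
Log2 change of each chaperone gene (vertical axis) in the 15 comparisons of groups (horizontal axis), each named with its control below, with called values in bold and colour ending at 2.5 in either direction. CRYAB passes the end of the colour scale in BRG1 ERG against GFP ERG (9.83) and against BRG1-K785R ERG (8.55). It also does so in BRG1 Empty against GFP Empty (8.24) and against BRG1-K785R Empty (5.46), and in BRG1-K785R Empty against GFP Empty (2.77). HSPD1 stands at -2.00 in shARID1A against shCt.

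The HSP70 genes and DNAJB1, HSPH1 and HSP90AA1, and the mitochondrial pair varied most alike. Over the 12 group means, as log2(CPM + 1) centred on each cell line, HSPA1A and HSPA1B, which share reads, correlated with DNAJB1 at 0.86 and 0.85 and with HSPA8 at 0.79 and 0.8. HSPH1 correlated with HSP90AA1 at 0.93, and HSPD1 with HSPE1, its neighbour on the chromosome, at 0.98. HSPB1 and CRYAB correlated at 0.47 with each other, and CRYAB at -0.27 to 0.19 with the others. These values describe 12 means that share libraries and controls within each line, and SW13 gives 6 of them.

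Among 10214 genes with at least 5 CPM in each line, those most like the sum of HSPA1A and HSPA1B on the same scale were TCF12 (0.977), DPF2 (0.966), GTF3C5 (0.96) and CCDC94 (0.959). TCF12, an E-protein transcription factor, averaged 187 CPM in SW13 BRG1-K785R Empty against 87 CPM in SW13 GFP Empty, and DPF2, a BAF subunit, 174 CPM against 79 CPM in the same groups. Those most like HSPD1 were HSPE1 (0.983), RANBP1 (0.98), DLGAP5 (0.976) and MRPL12 (0.973). DLGAP5, a mitotic spindle protein, averaged 4.48 CPM in VCaP shARID1A against 33.7 CPM in VCaP shCt. Among 14024 genes with at least 5 CPM in any line, those most like CRYAB were MAMLD1 (0.99), EIF2AK2 (0.985), ARHGAP29 (0.975) and MEIS2 (0.974). EIF2AK2, the kinase PKR, averaged 153 CPM in SW13 BRG1 Empty against 56.5 CPM in SW13 GFP Empty.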

How the data were processed

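PolyA RNA of VCaP, LNCaP and SW13 cells was sequenced as 75-base single-end reads. The authors deposited 1 table per library of whole-number read counts per gene, with RPKM and the length used for it. The deposited RPKM values equal the counts per library total and deposited length, and were used only to compare levels between genes; for HSPA1A and HSPA1B the mean length of the longest GENCODE coding transcripts replaced the deposited one. STAR 2.3.1 and the build hg19 are named per the submitters' processing notes. Which program counted reads, on which annotation and with which strand setting is not given in the sources used here.

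CPM are counts per library total. All groups of a line entered 1 fit per line in R 4.3.3 with edgeR 4.0.16: TMM scaling (0.938 to 1.08 over VCaP, 0.983 to 1.01 over LNCaP and 0.911 to 1.06 over SW13 libraries), filterByExpr by group, the quasi-likelihood F test, two-sided, and Benjamini-Hochberg adjustment over all 16791, 16993 or 17018 genes tested, with a threshold of 0.05. Log2 changes come with the fit's standard error, on 3, 3 and 6 residual degrees of freedom. The chi-square between duplicates, divided by its degrees of freedom, was 2.27 to 13.1, so they differed by more than counting error. The fit was tested on simulated data. There were 15 comparisons of groups and 3 differences between ERG effects.

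The members and the gene lists were chosen with earlier results of these data known. The lists were the HSF1 pathway with cytosolic co-chaperones, TRiC/CCT, mitochondrial, endoplasmic reticulum, immediate early, prostate luminal, adrenal cortex and mesenchymal genes. All members, the targeted genes, up to 4 genes per list and cell line by smallest adjusted p with at least 5 CPM, and the 4 genes most like 3 of the members were named. Promoters, motifs and transcripts were read with Python 3.11.15, pandas 2.3.3 and numpy 2.4.6 from RefSeq (GRCh38.p14) and GENCODE transcripts, with no coordinates of the deposited build used, and figures were drawn with matplotlib 3.10.9.

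Alternatives were RLE scaling, library totals, no filter, DESeq2 1.42.0, HSPA1A and HSPA1B summed, only the compared groups, the replicate number as a block, each library left out in turn and SW13 without both BRG1-K785R Empty libraries (an alternative that was added once the data had been seen). Deviations of same-numbered libraries from their group means correlated at -0.28 to 0.39, so the numbers were not read as pairs.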

Additional observations from a re-analysis of the deposited data

Results flagged for a closer look

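The effect of ERG (ERG against Empty) on the chaperones differed between the constructs it was paired with in SW13 cells, by a test of the difference itself in edgeR's quasi-likelihood fit with adjustment over all genes. Each value here is such a difference on the log2 scale. The level of ERG also differed between these constructs, as given above, and its part was not tested. Differences that involve BRG1-K785R share the same BRG1-K785R Empty libraries and are not independent.

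Beside BRG1, the effect of ERG was higher than beside BRG1-K785R by 3.09 for CRYAB, 1.83 for HSPA1A, 1.77 for HSPA1B, 1.28 for HSPA8, 0.99 for HSPB1, 0.92 for DNAJB1, 0.77 for HSPH1 and 0.37 for HSP90AA1. With library totals as the scale HSP90AA1 was no longer called (0.14, adjusted p = 0.187). The 2 mitochondrial chaperonin genes were not called, at -0.02 for HSPD1 and 0.15 for HSPE1.

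Beside BRG1, the effect of ERG was higher than beside GFP by 1.59 for CRYAB, 0.81 for HSPA8, 0.76 for HSPH1, 0.59 for HSP90AA1, 0.58 for HSPE1, 0.43 for HSPA1B, 0.42 for HSPA1A and 0.36 for HSPD1. DNAJB1 (0.09) and HSPB1 (-0.07) were not called.

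Beside BRG1-K785R, the effect of ERG differed from that beside GFP by -1.50 for CRYAB, -1.41 for HSPA1A, -1.34 for HSPA1B, -1.06 for HSPB1, -0.82 for DNAJB1 and -0.47 for HSPA8, and by 0.43 for HSPE1 and 0.37 for HSPD1. CRYAB rests on 14 to 38 reads per library beside GFP, and its difference was not called without GFP ERG 2 (-0.97, adjusted p = 0.118).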

How the results depend on the processing

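Over the 15 comparisons and 3 differences, 177 member results were recomputed. A result was kept if it stayed on its side of the threshold and, where called, kept its direction. Uncalled results were kept whatever their sign. Kept results numbered 175 with RLE scaling, 174 with DESeq2, 174 with no filter and 167 with only the compared groups. They numbered 162 with library totals and 176 with HSPA1A and HSPA1B summed. In SW13 without both BRG1-K785R Empty libraries 70 of 70 were kept. These 70 come from comparisons that do not use that group, so comparisons with it were not checked this way. Deviations of samples with equal replicate numbers correlated at -0.28 to 0.39, not all above 0.1, and a fit with the replicate number as a block changed 1 call, HSPB1 in LNCaP ERG against Empty (-0.16, adjusted p = 0.0539). Among results called on either scale, library totals reversed HSPA1B (0.13, adjusted p = 0.0234) and HSPD1 (0.05, adjusted p = 0.267) in VCaP shERG against shCt. They shifted the median of all genes by -0.23 to 0.21 and by over 0.1 in 7 of 18 comparisons, and moved the share of higher calls among all genes by over 10 points in 9. The percentages of all genes set beside counts of chaperones are those of the TMM scale. With 1 library left out, 787 of 828 member results kept their call. The number of chaperones called then ran from 3 to 7 for VCaP shERG against shCt, from 4 to 7 for SW13 GFP ERG against GFP Empty and from 4 to 9 for SW13 BRG1 ERG against BRG1-K785R ERG, and stayed within 1.5 times the full count in the other comparisons. The causes were not tested. Low counts limit HSPB1 in VCaP, and CRYAB in VCaP, LNCaP and the SW13 groups without the wild-type BRG1 construct.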
